A study of Mus musculus with 15 samples.

Results

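The genes described here are 10 genes that belong to germ cells: 6 factors and testis genes that act in or mark germ cell development (Dazl, Ddx4, Taf7l, Stk31, Sohlh2 and Tex19.1) and 4 genes of testicular germ cells (Tex101, Rpl10l, Slc25a31 and Brdt). The 10 genes were listed by name, with no threshold on a measured value but with earlier results of these data known, and all 10 were found once each among the 55471 gene identifiers of every count table. RNA-seq was available for 15 libraries of E14 mouse embryonic stem cells (mESC) and of embryoid bodies (EB), aggregates in which such cells leave the pluripotent state, in 5 groups of 3. Wild-type mESC were sampled nontreated and after 72 h in 500 nM dTAG-13. A line whose NSD1, a histone methyltransferase, carries the degron tag (NSD1-dTAG) was sampled as nontreated mESC, as nontreated EB on day 6, and as EB kept in 500 nM dTAG-13 for 6 days. dTAG-13 is a small molecule that bridges the tag and a ubiquitin ligase, which leads to degradation of the tagged protein. All mESC were grown with LIF and inhibitors of MEK and GSK3, and EB in suspension in a serum medium; EB of wild-type cells and dTAG-13-treated NSD1-dTAG mESC were not analysed here, and it is not given whether the tagged line is 1 clone.

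Many germline genes have promoters rich in CpG, and in mammals a number of them are switched off in the embryo around implantation, when DNA methyltransferases methylate those promoters. The same genes are bound before that by a Polycomb complex (PRC1.6) whose MGA, MAX and E2F6 subunits recognise E-box and E2F motifs, and they come on again in germ cells, where methylation is erased. NSD1 places the dimethyl mark on lysine 36 of histone H3, to which the de novo DNA methyltransferase DNMT3A binds. Only RNA was measured in the libraries used here, not DNA methylation, histone marks or protein.

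The promoters are shown for their CpG content and for E-box and E2F motifs, which only some of the genes carry. RefSeq windows (GRCm38.p6) of 250 bases before to 50 bases after the start were available for all 10 genes, with 2 windows for Stk31. A member window held between 13 CpG (Rpl10l) and 38 CpG (Ddx4), against a median of 7 over 32851 promoter windows, and all 10 genes lay above that median. Among all windows these counts stood at percentiles from 62.9 (Rpl10l) to 95.3 (Ddx4). CACGTG, a palindromic E-box that reads the same on both strands, was in the windows of 5 of the 10 genes (Ddx4, Taf7l, Stk31, Slc25a31 and Brdt) and in 7.15% of all windows. TCCCGC, an E2F motif searched on both strands (GCGGGA on the other), was in those of 4 (Ddx4, Tex19.1, Rpl10l and Slc25a31) and in 20% of all windows; neither motif contains the other. A match describes letters in a window and not a bound site. Below are the parts of 5 windows upstream of the annotated gene, 5′ to 3′ on the gene's strand, with CACGTG or the E2F motif in capitals: Dazl, which holds neither, at chr17:50293637-50293870 (minus strand); Taf7l at chrX:134476491-134476740 (minus strand); the downstream window of Stk31 at chr6:49395354-49395603 (plus strand); Slc25a31 at chr3:40708621-40708854 (plus strand); and Tex19.1 at chr11:121145893-121146142 (plus strand). The first 4 belong to genes that were higher in dTAG-13-treated EB and the last to a gene that was not. The E2F motif counted for Slc25a31 does not lie within the part printed. Of the genes not printed, Ddx4 (both motifs) and Sohlh2 (neither) were higher. Brdt, with CACGTG, and Rpl10l, with the E2F motif, were not. Whether a motif goes with the rise was not tested.
Dazl: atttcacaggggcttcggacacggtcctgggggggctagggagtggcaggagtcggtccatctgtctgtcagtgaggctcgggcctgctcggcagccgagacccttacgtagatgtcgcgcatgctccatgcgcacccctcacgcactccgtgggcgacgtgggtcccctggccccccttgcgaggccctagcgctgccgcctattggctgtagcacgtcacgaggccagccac
Taf7l: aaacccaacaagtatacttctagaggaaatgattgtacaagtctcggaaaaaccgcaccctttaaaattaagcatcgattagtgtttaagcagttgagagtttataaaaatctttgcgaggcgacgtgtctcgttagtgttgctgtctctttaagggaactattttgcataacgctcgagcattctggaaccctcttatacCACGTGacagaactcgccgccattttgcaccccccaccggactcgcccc
Stk31: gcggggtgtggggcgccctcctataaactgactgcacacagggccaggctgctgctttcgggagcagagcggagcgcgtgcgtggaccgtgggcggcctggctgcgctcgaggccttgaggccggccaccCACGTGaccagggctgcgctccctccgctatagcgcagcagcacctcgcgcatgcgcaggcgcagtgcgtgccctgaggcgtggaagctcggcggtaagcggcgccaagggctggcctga
Slc25a31: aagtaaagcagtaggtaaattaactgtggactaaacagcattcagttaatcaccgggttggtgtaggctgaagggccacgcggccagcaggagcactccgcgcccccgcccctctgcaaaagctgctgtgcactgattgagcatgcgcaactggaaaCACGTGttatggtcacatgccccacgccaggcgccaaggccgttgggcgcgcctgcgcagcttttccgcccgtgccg
Tex19.1: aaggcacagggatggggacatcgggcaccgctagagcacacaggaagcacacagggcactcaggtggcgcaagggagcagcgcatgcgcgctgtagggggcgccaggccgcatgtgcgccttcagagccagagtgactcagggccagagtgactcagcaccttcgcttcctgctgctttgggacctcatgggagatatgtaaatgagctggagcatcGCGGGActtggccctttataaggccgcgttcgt

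**Figure D1:**
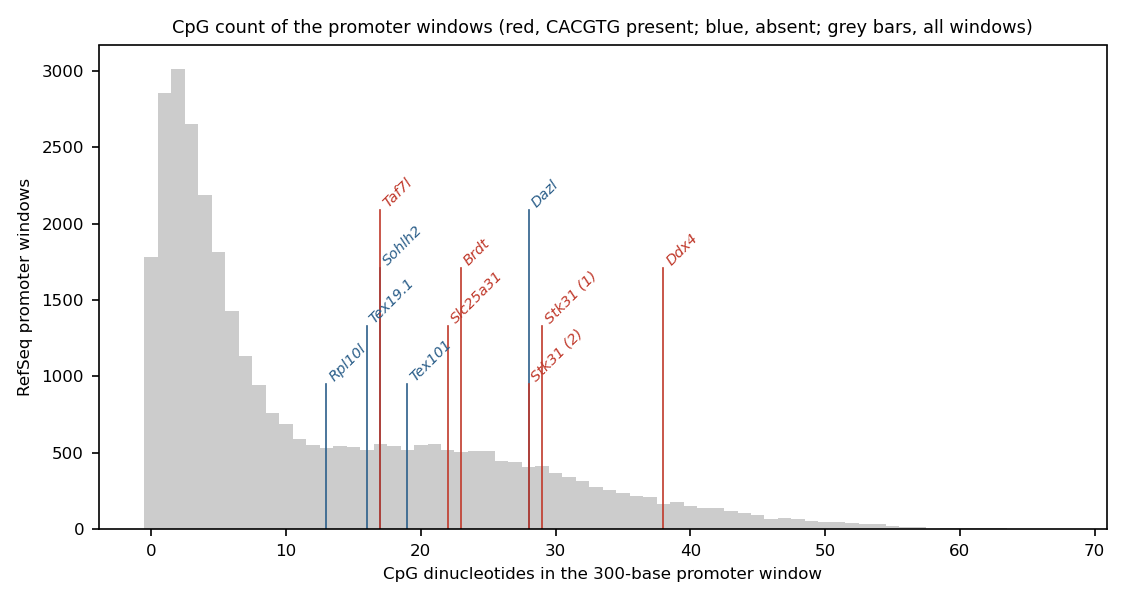
Number of CpG in each 300-base promoter window (x axis) against the number of windows (y axis) for all 32851 RefSeq windows (grey bars), with the 11 windows of the 10 germ cell genes as lines, red where the window holds CACGTG. The lines lie between 13 and 38 CpG, all to the right of the median of 7, and both red and other lines are found at high CpG counts.

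Nsd1 mRNA checks neither the tag nor its degradation, since dTAG-13 acts on the protein. On the counts-per-million scale (CPM, relative to all gene counts of a library), Nsd1 ranged over 309 to 396 in nontreated wild-type mESC, 248 to 393 in dTAG-13-treated wild-type mESC, 163 to 346 in NSD1-dTAG mESC, 209 to 261 in nontreated EB and 230 to 329 in dTAG-13-treated EB. Its difference passed the test in none of the 4 direct comparisons (adjusted p of 1, 0.723, 0.22 and 0.351, edgeR's quasi-likelihood test with Benjamini-Hochberg adjustment), and protein was not measured. A library held between 18704591 and 29103958 gene counts. In each group 1 library stood apart, with a read-weighted exon length of 4.99 to 5.50 kb against 5.71 to 5.93 kb in the other 10 and a higher share of ribosomal protein mRNA (6.16 to 8.61% against 5.07 to 5.75%): library 1 of nontreated wild-type mESC and of NSD1-dTAG mESC, and library 3 of the other 3 groups. Markers of naive pluripotent cells summed to 2410 to 3250 CPM in mESC and to 197 to 479 CPM in EB, and those of the formative epiblast to 100 to 143 CPM and 1140 to 2050 CPM. The titles call the 3 libraries of a group biological replicates without naming separate cultures, so p-values refer only to the spread among these libraries, which may be technical.

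**Figure D2:**
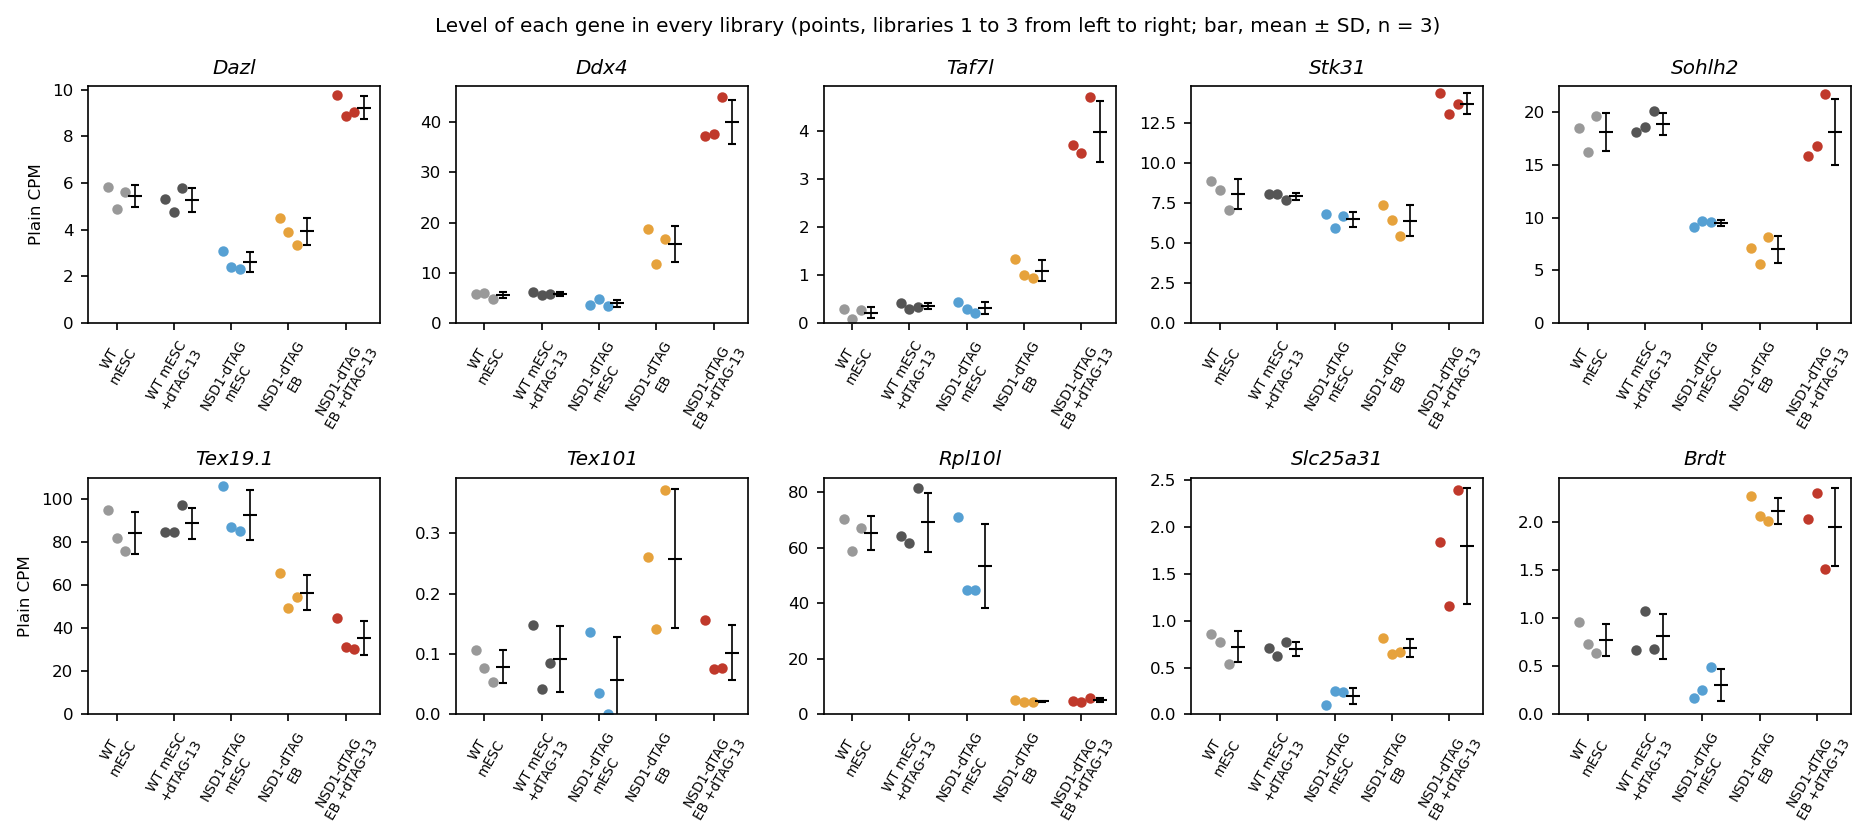
Level of each of the 10 genes (1 panel a gene, y axis in CPM) in the 5 groups (x axis). Points are libraries 1 to 3 from left to right and the bar with its line is the mean ± SD (n = 3). Dazl, Ddx4, Taf7l, Stk31, Sohlh2 and Slc25a31 have their 3 dTAG-13-treated EB points above the 3 nontreated EB points, while Rpl10l drops from 44.7 to 81.5 CPM in mESC to 4.42 to 6.06 CPM in EB.

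The genes differed widely in level within the same cells. Per kb of merged exon length, the mean in nontreated wild-type mESC ran from 63.9 CPM per kb for Rpl10l and 45 for Tex19.1 through 7.67 for Sohlh2, 2.5 for Stk31, 1.83 for Ddx4 and 1.43 for Dazl to 0.339 for Slc25a31. Brdt (0.152), Taf7l (0.0935) and Tex101 (0.0479) came last and overlapped their neighbours in the order. In nontreated EB Tex19.1 led at 30.2 CPM per kb, followed by Ddx4 at 5.23 and Rpl10l at 4.57, which overlapped, and then by Sohlh2 (2.95), Stk31 (1.98), Dazl (1.03), Taf7l (0.485) and Brdt (0.414), the last 2 overlapping. In dTAG-13-treated EB the order was Tex19.1 (19), Ddx4 (13.3), Sohlh2 (7.67), Rpl10l (5.06), Stk31 (4.24), Dazl (2.42), Taf7l (1.78), Slc25a31 (0.846), Brdt (0.381) and Tex101 (0.062), and no 2 neighbours overlapped. Tex19.1, which restrains retrotransposons in germ cells, and Rpl10l, the retrogene copy of Rpl10, thus had the highest levels per kb in mESC, and Sohlh2 the highest of the other 8.

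Degradation of NSD1 during EB formation was addressed by dTAG-13-treated against nontreated EB of the tagged line. The RNA of 6 of the 10 genes rose: Dazl, Ddx4, Taf7l, Stk31, Sohlh2 and Slc25a31, by 2.11-fold to 3.61-fold. Tex19.1 was 35.3 ± 7.69 CPM against 57.0 ± 8.69 CPM (SD, n = 3) and just missed the threshold, Rpl10l and Brdt were close to their nontreated levels, and Tex101 was too low to test. Of the 9 genes tested, 6 were called higher and 0 lower at an adjusted p under 0.05, against 6.76% of the 15236 genes tested (3.98% higher and 2.78% lower). For 7 of the 9 the libraries of both groups did not overlap, against 27.7% of genes, and the median log2 fold change was 1.21 against -0.01 over all genes. In bulk RNA, more cells that express a gene and more RNA per cell cannot be told apart.

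**Figure D3:**
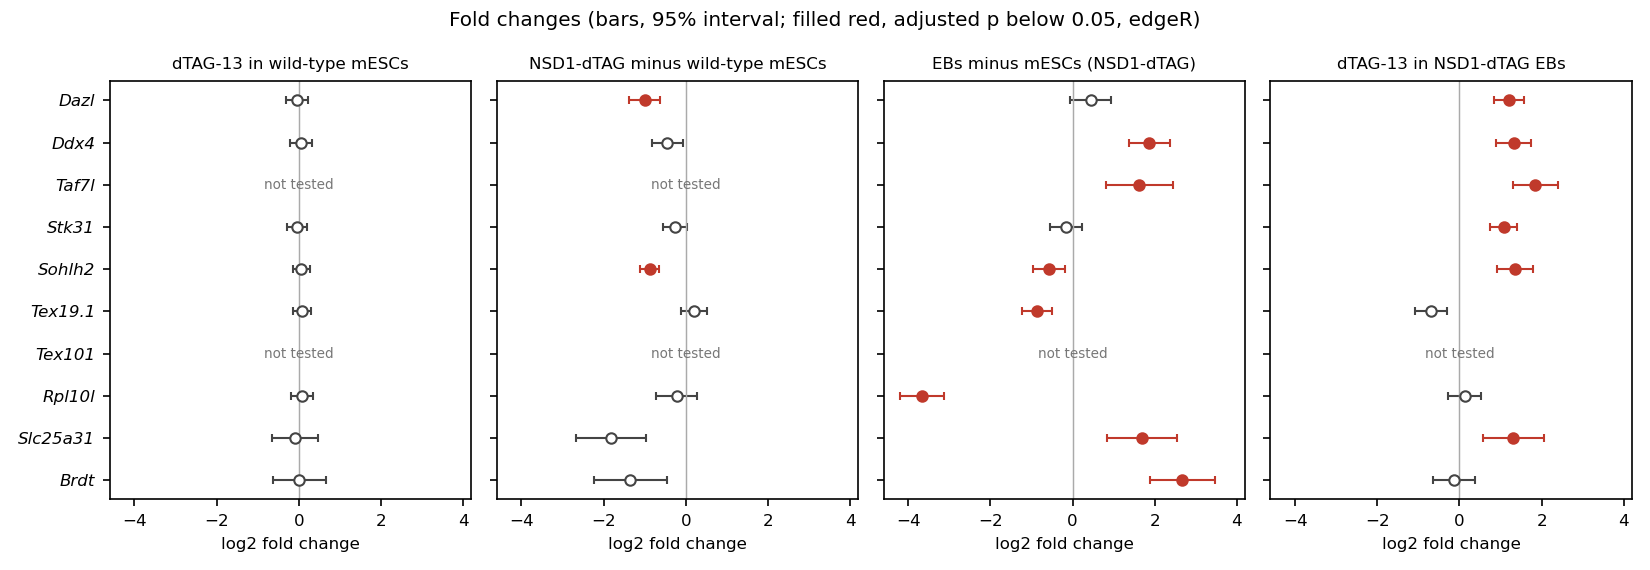
Log2 fold change of each gene (x axis, with 95% intervals as lines) in the 4 direct comparisons (1 panel each), red and filled where the adjusted p was under 0.05. In dTAG-13-treated against nontreated EB 6 genes lie to the right at 1.08 to 1.85, in wild-type mESC given dTAG-13 all 8 tested lie within 0.09 of 0, and genes that did not pass the count filter have no point. In EB against mESC, Taf7l, Slc25a31 and Brdt passed the filter only through EB, which set their direction.

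Among the RNA regulators, Dazl (ENSMUSG00000010592.9, chr17:50279395-50293636, minus strand, GRCm38) encodes an RNA-binding protein that germ cells need to develop. Its libraries 1, 2 and 3 were at 4.51, 3.92 and 3.34 CPM in nontreated EB and at 9.78, 8.88 and 9.04 CPM in treated EB. The treated libraries all lay above the nontreated ones, with a log2 fold change of 1.21 (SE 0.16, edgeR adjusted p = 0.00765). Ddx4 (ENSMUSG00000021758.14, chr13:112598333-112652475, minus strand), the mouse Vasa RNA helicase of germ granules, went from 18.8, 11.8 and 16.7 CPM to 37.2, 37.7 and 45.1 CPM. It is the most abundant of the 6 genes in EB, and its change was 1.32 (SE 0.18, edgeR adjusted p = 0.00991). Stk31 (ENSMUSG00000023403.14, chr6:49395604-49469501, plus strand) encodes a germ cell protein with a tudor and a kinase-like domain and was at 7.38, 6.44 and 5.43 CPM and then at 14.4, 13.1 and 13.7 CPM. All 3 treated libraries lay above the nontreated ones, and the change of 1.08 (SE 0.15, edgeR adjusted p = 0.00902) was the smallest of the 6.

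Taf7l and Sohlh2, which act in transcription, rose as well. Taf7l (ENSMUSG00000009596.9, chrX:134460118-134476490, minus strand), the germ cell paralog of the general transcription factor subunit TAF7, was at 1.34, 0.997 and 0.929 CPM in nontreated EB and at 3.71, 3.55 and 4.71 CPM in treated EB. This was the largest change of the 9 genes tested, 1.85 (SE 0.23, edgeR adjusted p = 0.00726), on 89 counts over the 3 nontreated and 312 over the 3 treated libraries. Taf7 itself was at 138 ± 3.84 CPM in treated and 152 ± 23.7 CPM in nontreated EB (log2 -0.14, edgeR adjusted p = 0.567). Sohlh2 (ENSMUSG00000027794.4, chr3:55182028-55209957, plus strand), a helix-loop-helix factor of spermatogonia and young oocytes, went from 7.12, 5.63 and 8.18 CPM to 15.9, 16.8 and 21.7 CPM (log2 1.36, SE 0.19, edgeR adjusted p = 0.0107). The treated range overlapped that of nontreated wild-type mESC, where the 3 libraries had 18.5, 16.2 and 19.7 CPM.

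Of the testis genes, Slc25a31 (ENSMUSG00000069041.8, chr3:40708855-40726096, plus strand), which encodes the ADP/ATP carrier of male germ cell mitochondria, was at 0.82, 0.641 and 0.669 CPM and then at 1.84, 1.16 and 2.39 CPM. The groups did not overlap, and the call was at the threshold (log2 1.32, SE 0.32, edgeR adjusted p = 0.0499). Brdt (ENSMUSG00000029279.15, chr5:107331159-107387058, plus strand), the testis member of the BET family that reads acetylated histones, was at 2.27, 2.07 and 2.01 CPM and at 2.03, 2.31 and 1.51 CPM, with overlapping groups (log2 -0.14, edgeR adjusted p = 0.787). Rpl10l (ENSMUSG00000060499.7, chr12:66283379-66284401, minus strand), whose 1 exon encodes a ribosomal protein used in spermatocytes, was at 5.03, 4.42 and 4.57 CPM and at 4.85, 4.63 and 6.06 CPM (log2 0.13, edgeR adjusted p = 0.734). How reads shared by Rpl10l and its parent Rpl10 were assigned is not given in the sources used here, so the level of Rpl10l is uncertain; Rpl10 was at 501 ± 41.0 CPM in treated and 523 ± 34.0 CPM in nontreated EB. Tex101 (ENSMUSG00000062773.6, chr7:24668007-24676675, minus strand), a surface glycoprotein of testicular germ cells and sperm, had 7, 4 and 10 counts in nontreated and 4, 2 and 2 counts in treated EB. With 3 counts worth 0.107 to 0.117 CPM in EB libraries, a difference in Tex101 was not detectable at this depth.

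Tex19.1 (ENSMUSG00000039329.8, chr11:121146143-121148319, plus strand) was lower in every treated library than in any nontreated one. Its nontreated libraries had 65.7, 49.5 and 54.5 CPM and its treated ones 44.7, 31.5 and 30.4 CPM (log2 -0.69, SE 0.17, edgeR adjusted p = 0.0519). Libraries with the same number deviated together in this comparison, and with the number as a block the change was -0.70 (edgeR adjusted p = 0.00776), which brings the members called to 7 of 9, with 1834 of 15236 genes (12%) called in that fit. Library 3 stood apart in both EB groups and the labels name no shared batch, so what the number stands for is not known. Between libraries of the same number the log2 ratio was -0.557, -0.652 and -0.84 for Tex19.1. It was positive for all 3 numbers in each of the 6 genes called higher, from 0.852 (Slc25a31, number 2) to 2.34 (Taf7l, number 3).

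The calls of Dazl, Ddx4, Taf7l, Stk31 and Sohlh2 were kept in all 14 alternatives of this comparison, with log2 fold changes between 0.97 and 2.02 and edgeR, DESeq2 or limma adjusted p of at most 0.0476. The call of Slc25a31 ended in 7 of them: in limma-voom (adjusted p = 0.0713), without library 1, 2 or 3 of nontreated EB or 1 or 3 of treated EB (edgeR adjusted p of 0.0847 to 0.196) and without the libraries that stand apart (log2 1.01, edgeR adjusted p = 0.0697), while Tex19.1 was called in 7, among them DESeq2 (adjusted p = 0.00441) and the fit without treated library 1 (edgeR adjusted p = 0.0470). Over all genes, the number called (1030) fell to 301 and 182 without library 1 or 2 of nontreated EB and to 184 and 395 without library 1 or 2 of treated EB.

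Other germline genes were read from lists by their counts. The lists were chosen with earlier results of these data known. Over all 15236 genes tested in this comparison, 3.98% were called higher and 2.78% lower. Of 14 further genes whose promoters are known as methylation-silenced, 12 were tested and 5 rose, with a median log2 fold change of 0.43 (all genes, -0.01): Sycp3, a protein of the meiotic chromosome axis, at 169 ± 23 CPM against 42.4 ± 9.99 CPM (log2 1.99, edgeR adjusted p = 0.00311), the piRNA pathway genes Piwil2 (log2 1.35) and Tdrd1 (0.99), and Hormad1 (1.07) and Tex11 (1.03), which act in meiotic chromosome synapsis and recombination. Their summed level was 85.1 to 110 CPM in nontreated and 242 to 289 CPM in treated EB. Of 8 meiotic genes tested out of 10, 2 rose, the cohesin gene Rec8 (log2 1.15) and the synaptonemal complex gene Sycp1 (1.19), with a list median of 0.22. Of 10 spermatogonial and oocyte regulators 5 were tested and 2 rose, Tex14 (0.92) and Dmrt1 (0.49), with a list median of 0.42. Of 9 spermatid genes 1 was tested and rose, the lactate dehydrogenase gene Ldhc (0.72, edgeR adjusted p = 0.0481).

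Of the factors of primordial germ cells, all 8 were tested and 0 of 8 were called, with a median log2 fold change of -0.26; the RNA-binding protein gene Lin28a was at 0.02 and the receptor gene Kit at -0.41. The 6 primordial germ cell markers (Prdm1, Prdm14, Tfap2c, Nanos3, Dppa3 and Dnd1) were all detected and summed to 118 to 200 CPM in nontreated and 106 to 143 CPM in treated EB. Markers of somatic cells of the testis summed to 1.3 to 2.21 CPM and 0.772 to 2.16 CPM, with the steroid enzyme gene Cyp17a1 at 0 in treated EB. Markers of 2-cell-like cells summed to at most 0.298 CPM and at most 0.112 CPM.

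Markers of other cell types also differed between the EB groups, where 2.78% of all genes tested were called lower and 3.98% higher. The 5 mesoderm markers summed to 291 to 748 CPM in nontreated and 28.5 to 118 CPM in treated EB, with 3 of 5 called lower, and the 6 naive pluripotency markers to 313 to 479 CPM and 197 to 280 CPM, with 4 of 6 lower. The 5 formative markers (1140 to 1760 CPM and 1330 to 2050 CPM) and the 6 extraembryonic endoderm markers (226 to 288 CPM and 97.5 to 327 CPM) had no call, and 1 of 3 tested neural markers was lower. The part of these differences in the rise of the germ cell genes was not tested.

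Of the enzymes that write, copy and remove DNA methylation, 8 of 8 were tested and 1 fell, Dnmt3l, the catalytically inactive partner of the de novo methyltransferases (96.9 ± 18.6 CPM against 149 ± 1.12 CPM, log2 -0.62, edgeR adjusted p = 0.0340). The list median was -0.03, with 4 of 8 positive, and for 3 of 8 the groups did not overlap, against 27.7% of genes. Besides Dnmt3l these were Tet2 (11.3 to 19.4 CPM in nontreated and 5.29 to 10.8 CPM in treated EB) and Tet3 (18.8 to 22.7 and 22.9 to 33 CPM). Dnmt3a (118 to 169 and 147 to 216 CPM) and Dnmt3b (693 to 1260 and 986 to 1530 CPM) overlapped. None of these 4 was called. None of the 14 subunits of PRC1.6 and H3K9 methyltransferases was called (median -0.09; Mga 0.13, Wdr5 -0.06), nor any of 10 tested paralogs of the germ cell genes (median -0.08; Ddx3x -0.05, Rpl10 -0.06) or of the 5 H3K36 methyltransferases (median 0.12).

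**Figure D4:**
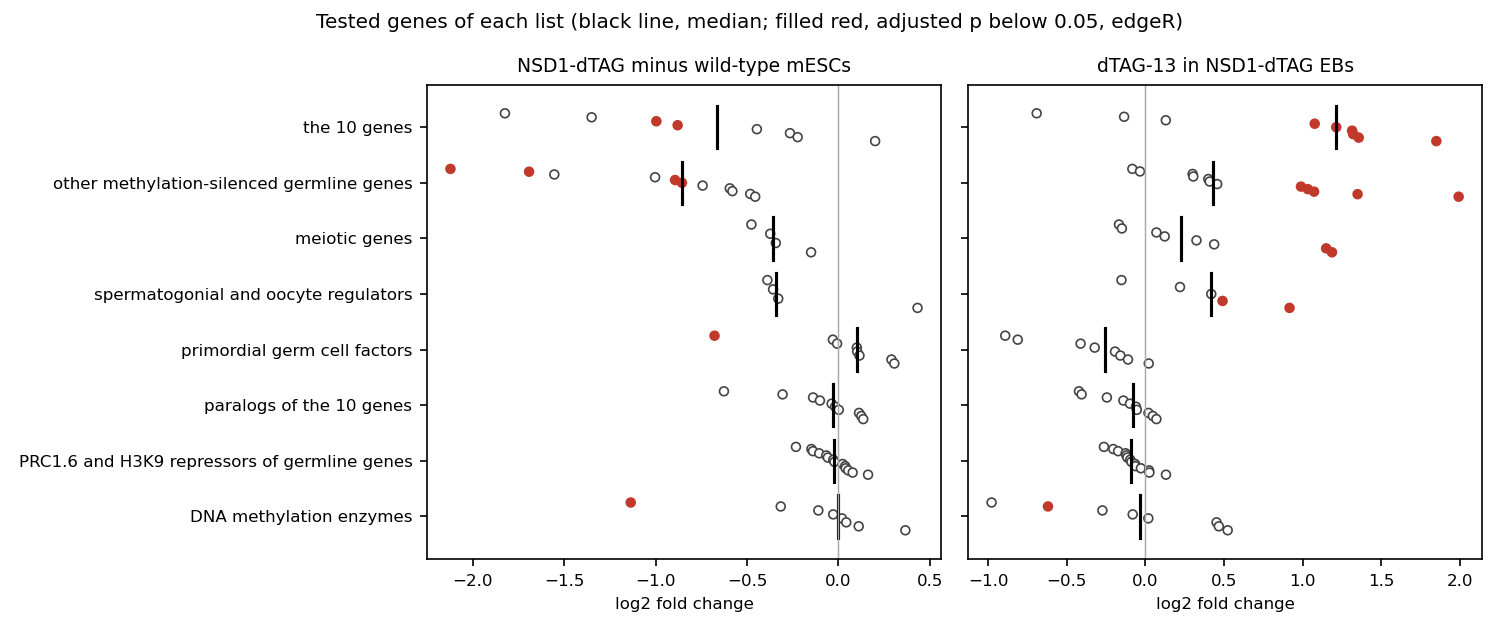
Log2 fold change (x axis) of each tested gene of 8 lists (y axis) in NSD1-dTAG against wild-type mESC and in dTAG-13-treated against nontreated EB, red where the adjusted p was under 0.05, with the median of each list as a tick. In EB the called genes of the germ cell lists lie to the right of 0 and in NSD1-dTAG mESC to the left, and the DNA methylation, Polycomb and primordial germ cell lists have at most 1 called gene in either panel.

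Whether dTAG-13 by itself changes these genes was addressed in wild-type mESC, which lack the tag. None of the 8 genes tested was called, nor was any of the 13784 genes tested (0.00%; 229 had an unadjusted p under 0.05 in edgeR, 79 in DESeq2 and 243 in limma-voom, and those tools called 0 genes too). No gene of the 8 had groups that did not overlap, against 6.01% of all genes. All 8 log2 fold changes lay between -0.09 and 0.08. Ddx4, for example, was at 5.79, 5.94 and 4.81 CPM in nontreated and 6.12, 5.47 and 5.78 CPM in treated wild-type mESC, and Dazl at 5.83, 4.9 and 5.61 CPM and 5.3, 4.77 and 5.78 CPM. The groups overlapped for both. The widest of the 8 intervals was that of Brdt, a log2 fold change of -0.62 to 0.65 at 95% confidence. Taf7l (15 and 26 counts over 3 libraries) and Tex101 (6 and 7 counts) did not pass the filter. Taf7l was at 0.286, 0.0772 and 0.267 CPM in nontreated and 0.41, 0.29 and 0.342 CPM in treated wild-type mESC. On these few counts its groups did not overlap, and the difference was not tested.

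The effect in tagged EB was then compared with that in wild-type mESC, a difference in which the tag, the cell state and the length of treatment change together and cannot be told apart. Of 9 genes tested 4 were called, against 2.88% of 15855 genes. The difference of log2 fold changes was 1.26 for Dazl (edgeR adjusted p = 0.00556), 1.26 for Ddx4 (0.0140), 1.11 for Stk31 (0.00653) and 1.29 for Sohlh2 (0.00762), and these 4 calls were kept in all 20 alternatives. Taf7l (1.11, edgeR adjusted p = 0.350) and Slc25a31 (1.38, adjusted p = 0.125) had differences of similar size that did not pass. Tex19.1 was at -0.77 (edgeR adjusted p = 0.0716), and with the replicate block at -0.78 (edgeR adjusted p = 0.0220). Rpl10l (0.05) and Brdt (-0.17) were near 0.

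The tagged line was compared with wild-type cells before any dTAG-13 was given, both as mESC. Dazl and Sohlh2 were lower in the tagged line and no gene of the 10 was called higher. Taf7l and Tex101 did not pass the filter, and Slc25a31 and Brdt passed it only through the wild-type libraries, where they are high, and are left out of the counts. Of the 6 genes that passed in both groups 2 were called lower, against 1.86% of 13895 genes (0.547% higher and 1.32% lower). For 3 of the 6 (Dazl, Ddx4 and Sohlh2) the groups did not overlap, against 21.8% of genes.

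Dazl was at 3.09, 2.41 and 2.32 CPM in NSD1-dTAG mESC, below every nontreated wild-type library, which had 4.9 to 5.83 CPM (1.99-fold lower, log2 -0.996, SE 0.16, edgeR adjusted p = 0.0381). Sohlh2 was at 9.14, 9.64 and 9.61 CPM against 16.2 to 19.7 CPM (1.84-fold lower, log2 -0.88, SE 0.10, edgeR adjusted p = 0.0162). For both genes every tagged library lay below every wild-type one, and for Sohlh2 the tagged libraries were close to each other. Slc25a31, with 16 counts over 3 tagged libraries and 54 over 3 wild-type ones, had a log2 fold change of -1.82 (edgeR adjusted p = 0.0622), and was called in 8 of 15 alternatives, among them the replicate number as a block (-1.82, edgeR adjusted p = 0.0469). Brdt (24 and 58 counts) was at -1.35 (edgeR adjusted p = 0.147), Ddx4 at -0.45 (0.247), Stk31 at -0.27 (0.435), Rpl10l at -0.22 (0.752) and Tex19.1 at 0.20 (0.636). Among the 15 alternatives Ddx4 was called in 2 (lowest edgeR adjusted p = 0.0350), Brdt in 1 (0.0258), Rpl10l in 3, Tex19.1 in 1 and Stk31 in 0. The calls of Dazl and Sohlh2 ended without any 1 wild-type library or without library 2 or 3 of the tagged line (edgeR adjusted p of 0.0721 to 0.182), settings that left 3, 2, 3, 1 and 12 genes called in all, against 259 with every library, 785 with the replicate block and 1248 without tagged library 1. Without the libraries that stand apart, Dazl and Sohlh2 remained called, Rpl10l fell by 0.45 (edgeR adjusted p = 4.24e-08), Slc25a31 fell by 1.38 (0.0248) and Tex19.1 rose by 0.15 (0.00813).

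Some other germline genes were also lower in the tagged mESC, and others were not. Over all 13895 genes tested, 1.32% were called lower and 0.547% higher. Of 11 tested genes of the further methylation-silenced list 4 fell, with a median of -0.86 (all genes, 0.01): Fkbp6 (log2 -2.12), Piwil2 (-1.69), Gpat2 (-0.86) and Mov10l1 (-0.89), all of the piRNA pathway. The list median includes Tdrd1, which passed the filter only through the wild-type libraries. The summed level of the list was 38.6 to 43.5 CPM against 74.3 to 82.0 CPM in nontreated wild-type mESC. Of the primordial germ cell factors 1 of 8 fell (Tfap2c, -0.68), and of the DNA methylation enzymes 1 of 8 (Dnmt3a, 10.4 ± 2.07 CPM against 22.8 ± 2.41 CPM, log2 -1.14, edgeR adjusted p = 0.0266). None of the 4 meiotic genes tested, the 14 Polycomb and H3K9 genes, the 10 paralogs or the 5 H3K36 methyltransferases was called. Nor was any of the 4 spermatogonial and oocyte regulators tested. The 1 spermatid gene tested, Ldhc, was not called but stood higher in the tagged line (log2 0.58), with groups that did not overlap. Of the 8 primordial germ cell factors 5 had a positive log2 fold change, with a list median of 0.10. The tagged line and the wild type share their medium, and whether the difference comes from the tag or from the derivation of the line cannot be told apart.

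In the tagged line without dTAG-13, Ddx4 was higher in EB than in mESC, and Rpl10l, Tex19.1 and Sohlh2 were lower. Taf7l, Slc25a31 and Brdt passed the filter only through EB, where they are high. The filter thus set their direction, and they are left out of the counts. Of the 6 genes that passed in both groups 4 were called, 1 higher and 3 lower, against 59.5% of 15193 genes (33.1% higher and 26.3% lower), a share near that of all genes. The groups of the same 4 did not overlap, against 67.7% of genes. Ddx4 rose 3.65-fold to 15 ± 3.55 CPM (log2 1.87, SE 0.22, edgeR adjusted p = 1.50e-04), with 3.57, 4.67 and 3.46 CPM in mESC. For the genes that passed only through EB, the values are given as a description. Brdt was at 0.172, 0.252 and 0.489 CPM in mESC and at 2.27, 2.07 and 2.01 CPM in EB (log2 2.67). Taf7l was at 0.447, 0.288 and 0.204 CPM and at 1.34, 0.997 and 0.929 CPM (1.62), and Slc25a31 differed by 1.68.

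Rpl10l had the largest change of the 9 genes in this comparison. It fell from 71.1, 44.9 and 44.7 CPM in tagged mESC to 5.03, 4.42 and 4.57 CPM in EB, 12.7-fold (log2 -3.67, SE 0.23, edgeR adjusted p = 5.30e-06), while Rpl10 was at 538 ± 96.3 CPM and 494 ± 26.6 CPM (log2 -0.12, edgeR adjusted p = 0.481). Tex19.1 fell from 106, 86.8 and 85.1 CPM to 65.7, 49.5 and 54.5 CPM (log2 -0.86, edgeR adjusted p = 0.00176). Sohlh2 fell by 0.58 (edgeR adjusted p = 0.0172), a call that ended without EB library 2 (-0.44, edgeR adjusted p = 0.0577). Dazl (0.44, edgeR adjusted p = 0.110) and Stk31 (-0.16, edgeR adjusted p = 0.442) did not pass. Dazl was called in 3 of 14 alternatives, at 0.42 (edgeR adjusted p = 0.0343) with all 15 libraries in 1 fit, 0.70 (0.0118) without the libraries that stand apart and 0.58 (0.0419) when mESC library 1 was left out.

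Over the same step, 7 of the 12 tested genes of the further methylation-silenced list rose and 2 fell, with a median of 1.06 (all genes, 0.02). Over all 15193 genes tested, 33.1% were higher and 26.3% lower. By p-value the first 3 were Tdrd1 (log2 4.86), Sycp3 (3.62) and Mael (3.04), a piRNA pathway gene. Tdrd1 (0.108 to 0.241 CPM in mESC) and Dpep3 (0.036 to 0.103 CPM) passed the filter only through EB. The filter thus set their direction, and the counts and median of the list include them. The de novo methyltransferases Dnmt3a (3.61) and Dnmt3b (2.84) rose with Dnmt3l (1.44), and 4 of the 8 DNA methylation enzymes fell. Of the 14 Polycomb and H3K9 genes 4 rose and 8 fell, among them Wdr5 (-1.13), Tfdp1 (-0.87) and Rnf2 (-0.65). Most genes changed in this step (59.5% called), and whether any of these lists differs from all genes was not tested. The mESC libraries hold ERCC spike-in counts and the EB libraries hold none, so a difference in preparation cannot be told apart from cell state. These comparisons share libraries (nontreated wild-type mESC serve 2, NSD1-dTAG mESC 2 and nontreated EB 2), so their values stand side by side and were not correlated. For Dazl they were -0.05 for dTAG-13 in wild-type mESC, -0.996 for the tagged against the wild-type line, 0.44 for EB against mESC and 1.21 for dTAG-13 in EB, and for Sohlh2 they were 0.06, -0.88, -0.58 and 1.36.

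Over the 15 libraries the 10 genes did not share 1 pattern. The Pearson correlation of log2(CPM + 0.5), given as a description of libraries that fall into 5 groups, was 0.957 between Ddx4 and Taf7l, 0.895 between Dazl and Stk31, 0.886 between Dazl and Slc25a31 and 0.862 between Tex19.1 and Rpl10l, and it was -0.931 between Ddx4 and Tex19.1. Among other genes with a mean of at least 1 CPM, those most like Sohlh2 were Tex11 (0.936), Hormad1 (0.878) and D1Pas1 (0.873). Those most like Dazl were Piwil2 (0.948), Myh3 (0.922) and Klhl8 (0.90), and those most like Stk31 were Bcar3 (0.921), Plk3 (0.917) and Myh3 (0.917). The values were higher for the other 5 members with a mean of at least 1 CPM: Rimklb, Fes and Ica1 for Ddx4 (0.986 to 0.989), Tlr2, Mybpc2 and Col5a2 for Taf7l (0.978 to 0.984), Cyth3, Lancl2 and Chn1 for Brdt (0.971 to 0.973), Dck, Gstp2 and Tcea3 for Tex19.1 (0.962 to 0.971), and Mif4gd, Olfr814 and Pcolce2 for Rpl10l (all 0.996).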

How the data were processed

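Poly(A) RNA was sequenced from 15 libraries. ERCC spike-ins held 0.292 to 0.496% of counts in the mESC libraries and 0% in every EB library. Where EB and mESC are compared, this difference and cell state cannot be told apart. The authors deposited 1 table of raw read counts per gene for each library; per the submitters' processing notes the tools were bcl2fastq 2.20.0.422, STAR and DESeq2 1.30.0, with builds GRCm38.p6 and mm10. Neither the strand counted nor the annotation release is given there. The 92 ERCC rows were left out, and CPM uses gene counts only. Of 55471 gene identifiers 55230 matched GENCODE M21, from which symbols, coordinates and merged exon lengths were taken; the other 241 held at most 0.002% of counts. No member overlaps an exon of another gene in that annotation. Promoter windows are RefSeq's (GRCm38.p6).

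Each comparison was fitted on its own groups with edgeR 4.0.16 (R 4.3.3) on the counts: TMM scaling, filterByExpr, quasi-likelihood F test, Benjamini-Hochberg adjustment over all genes tested, and a call at an adjusted p under 0.05. Means ± SD beside a fold change use TMM-scaled CPM; values per library are unscaled. The standard error is the log2 fold change over the square root of F. The pipeline was tested on simulated data. Alternatives were DESeq2 1.42.0, limma-voom (limma 3.58.1), RLE scaling, no filter, all 15 libraries in 1 fit, the replicate number as a block with and without a gene-length offset, 6 wild-type libraries, each library left out, and, added after the data were seen, the fit without the libraries that stand apart.

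Same-numbered libraries deviated together in NSD1-dTAG against wild-type mESC (correlations of 0.58, 0.29 and 0.29) and in treated against nontreated EB (0.23, 0.27 and 0.37), though the labels name no shared batch. In these comparisons the library that stood apart had the same number in both groups, and in the other direct comparisons it had different numbers. Whether the block takes up more than that difference was not tested. Members and lists were chosen with earlier results of these data known. All 10 members are named; of each list, up to 3 called genes by p-value or, with no call, the 2 with the highest CPM, and for members of at least 1 CPM on average the 3 genes with the highest correlation. Hormad1, Tex11 and Mov10l1 were named in addition after their values were seen. The same holds for Tet2, Tet3, Dnmt3a and Dnmt3b in treated against nontreated EB. Intervals of fold changes use the quantile of the t distribution at each gene's quasi-likelihood degrees of freedom and so reflect the spread among libraries. Floors of 3 counts cover counting error only.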

Additional observations from a re-analysis of the deposited data

Results flagged for a closer look

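The effect of dTAG-13 differed between tagged EB and wild-type mESC for 4 of the 9 genes tested and for 5 of 35 tested genes of the other germline lists, by an edgeR test of the difference itself, against 2.88% of all 15855 genes tested. For Dazl the difference of log2 fold changes was 1.257 (1.21 in EB and -0.05 in wild-type mESC), for Ddx4 1.259 (1.32 and 0.05), for Stk31 1.105 (1.08 and -0.04) and for Sohlh2 1.293 (1.36 and 0.06). Sycp3 had the largest difference of the 9 genes, 2.289 (1.99 and -0.30), followed by Rec8 at 1.337 (1.15 and -0.19), Piwil2 at 1.294 (1.35 and 0.05), Hormad1 at 1.207 (1.07 and -0.15) and Tex11 at 1.119 (1.03 and -0.09). The edgeR adjusted p of these 9 lay between 5.82e-04 and 0.0250. Tag, cell state and length of treatment cannot be told apart here.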

How the results depend on the processing

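Of 664 log2 fold changes of the 10 genes under alternatives, 592 kept their direction and side of the threshold, 32 passed it and 18 lost it. The 22 that reversed all belonged to genes not called in either fit. Counts of members in this section include genes that passed the filter through 1 group only, which set their direction. These are Slc25a31 and Brdt in NSD1-dTAG against wild-type mESC, and Taf7l, Slc25a31 and Brdt in EB against mESC. With DESeq2 636, 1686 and 799 genes were called (NSD1-dTAG against wild-type mESC, treated against nontreated EB, and the difference of dTAG-13 effects), and with all 15 libraries in 1 fit 500 and 1931 in the first 2 of these. With the replicate block, 785 and 1834 genes were called in the first 2, while the block combined with an offset for gene length gave 1393, 1826 and 727, with 5 members called in NSD1-dTAG against wild-type mESC. The block changed no other call of a member than those of Tex19.1 and Slc25a31 given above. Numbers did not pair libraries in the 2 other comparisons (correlations of -0.29, 0.23 and -0.25, and of -0.20, 0.13 and -0.27), where the block left 0 and 7 members called. The 7 include Taf7l, Slc25a31 and Brdt, which passed the filter only through EB. With 6 wild-type libraries 1150 genes and 5 members were called. Without a filter the difference of effects gave 915 genes. Leaving out 1 library at a time gave 1 to 1248 genes and 0 to 4 members in NSD1-dTAG against wild-type mESC, 182 to 1293 genes in EB, and 202 to 763 in the difference of effects. Without the libraries that stand apart, 16 (dTAG-13 in wild-type mESC), 3123 with 5 members, 3233 and 1897 genes were called. Values that changed sign when 1 library was left out ranged, for dTAG-13 in wild-type mESC, over -0.12 to 0.025 (Dazl), -0.027 to 0.12 (Ddx4), -0.12 to 0.037 (Stk31), -0.0067 to 0.11 (Sohlh2), -0.0040 to 0.16 (Tex19.1), -0.050 to 0.16 (Rpl10l), -0.23 to 0.058 (Slc25a31) and -0.23 to 0.21 (Brdt). They ranged over -0.0063 to 0.21 (Rpl10l) and -0.27 to 0.014 (Brdt) in EB, and over -0.094 to 0.18 (Rpl10l) and -0.36 to 0.079 (Brdt) in the difference of effects. Without the libraries that stand apart Stk31 was at 0.057 in wild-type mESC, and Rpl10l at -0.011 in EB and -0.028 in the difference of effects. The cause of these shifts was not tested. Depth limits Tex101 in all groups and Taf7l, Slc25a31 and Brdt in tagged mESC, where totals over 3 libraries were 26, 16 and 24 counts.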
